A study of Mus musculus with 109 samples.

Results

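Icam1, Vcam1, Sele, Selp, Ackr1, Lrg1, Vwf and Madcam1 were followed in the mouse retina after cytokine injection into the eye. These 8 genes, of 37315 in the count table, were chosen by name for their parts in endothelial adhesion and leukocyte recruitment. Earlier results of these data were known when they were chosen. Retinal RNA was sequenced from 64 mice aged 2 to 4 months, and both eyes were sequenced in 45 mice. C57BL/6J (WT) eyes received intravitreal IL1A, TNF, IL1A and TNF together (IL1A+TNF), or PBS, the injection vehicle, and were taken at day 2 (batch 1: 31 PBS, 8 TNF, 9 IL1A and 10 IL1A+TNF retinas). Day 14 (7 PBS, 6 TNF) and day 35 (6 PBS, 9 TNF) were sampled for TNF and PBS alone. A second batch at day 2 held WT retinas (5 PBS, 6 IL1A+TNF) and retinas of Sarm1-/- mice (6 PBS, 6 IL1A+TNF), which lack the axon degeneration gene Sarm1. Every eye had been injected, so a PBS retina is an injected control and not an untouched retina, and in 44 of the 45 mice with both eyes sequenced 1 eye had received a cytokine and the other PBS. In the remaining mouse both eyes were PBS retinas of day 14.

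Endothelial cells recruit leukocytes in steps. Selectins on the vessel wall catch passing leukocytes and let them roll, chemokines held at the endothelial surface activate their integrins, and the immunoglobulin-family adhesion molecules bind those integrins so that the cells arrest and cross. Selp is P-selectin, stored with von Willebrand factor (Vwf) in the Weibel-Palade bodies of endothelial cells and in platelet granules, and Sele is E-selectin, made by endothelium on activation. Icam1 binds the leukocyte integrins that share Itgb2, Vcam1 binds the integrin of Itga4 and Itgb1, and Madcam1, best known from vessels of the gut, binds the integrin of Itga4 and Itgb7. Ackr1 is a receptor that binds and moves chemokines without signalling through G proteins, and Lrg1 is a secreted glycoprotein that modifies TGF-beta signalling in vessels. In the retina these vessels form part of the blood-retinal barrier, and Icam1, Vcam1 and Lrg1 are also made by cells other than endothelium.

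In GRCm38 (mm10) with GENCODE M21, Icam1 (ENSMUSG00000037405) lies at chr9:21015985-21028817 on the plus strand, Vcam1 (ENSMUSG00000027962) at chr3:116109949-116129688 on the minus strand, and Madcam1 (ENSMUSG00000020310) at chr10:79664559-79668537 on the plus strand. Sele (ENSMUSG00000026582) at chr1:164048234-164057677 and Selp (ENSMUSG00000026580) at chr1:164115264-164150026 are neighbours on the plus strand. Vwf (ENSMUSG00000001930) lies at chr6:125546774-125686679 on the plus strand, Lrg1 (ENSMUSG00000037095) at chr17:56119678-56122001 and Ackr1 (ENSMUSG00000037872) at chr1:173331886-173333750 on the minus strand. The strand setting of the read counting is not given in the sources used here, so reads of overlapping antisense genes may be mixed in. Such genes covered 11.7% of the exonic bases of Icam1 (Gm47079), 9.93% and 4.21% of Selp (Gm16548 and Gm16587) and 0.688% of Vcam1 (Gm43109). Ackr1 overlapped Cadm3, a synaptic adhesion gene of the same strand, over 25.7% of its exonic bases.

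The selectin, Icam1 and Madcam1 promoters are shown because the results below turn on these 4 genes, and because NF-kB motifs in these promoters are the textbook link between IL1A or TNF and this gene group. RefSeq (GRCm38.p6) held a promoter for 6 of the 8 genes, among them Lrg1 and Ackr1, and the 250 bases before the start are printed for 4 of them in the direction of transcription, with capitals for the letters GGNNNTTCC read on either strand and, in Madcam1, for the NF-kB consensus.
Icam1, chr9:21015690-21015939, plus strand: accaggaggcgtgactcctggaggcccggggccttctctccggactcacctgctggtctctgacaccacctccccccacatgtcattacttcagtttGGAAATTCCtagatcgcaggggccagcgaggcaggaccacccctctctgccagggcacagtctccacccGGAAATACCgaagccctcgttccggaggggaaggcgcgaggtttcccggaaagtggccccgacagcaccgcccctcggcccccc
Sele, chr1:164047984-164048233, plus strand: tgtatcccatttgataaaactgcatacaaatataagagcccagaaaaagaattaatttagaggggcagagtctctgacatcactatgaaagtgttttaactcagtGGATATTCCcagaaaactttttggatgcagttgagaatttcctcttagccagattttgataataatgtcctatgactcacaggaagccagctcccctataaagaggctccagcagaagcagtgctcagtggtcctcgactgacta
Selp, chr1:164115014-164115263, plus strand: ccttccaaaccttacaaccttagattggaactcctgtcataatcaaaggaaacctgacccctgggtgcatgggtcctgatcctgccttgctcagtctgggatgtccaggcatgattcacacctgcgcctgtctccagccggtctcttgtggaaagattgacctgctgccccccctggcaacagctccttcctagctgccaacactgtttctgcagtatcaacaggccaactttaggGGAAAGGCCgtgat
Madcam1, chr10:79664309-79664558, plus strand: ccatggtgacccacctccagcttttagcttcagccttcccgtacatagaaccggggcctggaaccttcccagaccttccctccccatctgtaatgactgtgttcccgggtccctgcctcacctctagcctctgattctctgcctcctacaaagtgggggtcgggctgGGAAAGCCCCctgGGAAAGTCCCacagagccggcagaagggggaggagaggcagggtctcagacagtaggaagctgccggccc
The strict NF-kB consensus was found in Madcam1 alone among the 6 promoters, as 2 neighbouring matches on the opposite strand at bases -83 to -74 and -70 to -61, and in 3.9% of 32851 RefSeq promoters of the same length. The looser GGNNNTTCC, chosen after these promoters had been read and overlapping both consensus matches in Madcam1, was present in all 6 and in 15.7% of all promoters. TGANTCA, an AP-1 motif, was present in Sele and Selp and in 6.75% of all promoters, and TATAAA on the gene strand was present in Sele and in 7.59%. A match is a run of letters and not a shown binding site.

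Library totals ranged from 30014757 to 79064488 counts. Sarm1 measured 76.2 to 138 CPM (counts relative to the library total, scaled by TMM factors) in WT and 26 to 52.9 CPM in Sarm1-/- retinas, so the ranges did not overlap and the reads were reduced rather than absent. The pan-endothelial marker list of 16 genes was detected in full in every retina, so the retina's vessels were represented in all groups. In bulk tissue, fewer cells of a type and less RNA per cell cannot be told apart. However, 2 libraries stood apart from their group: Sarm1-/- IL1A+TNF replicates 4 and 5, whose correlation with the other libraries of the group fell to 0.919, against 0.982 or more in every other group. Test results that rest on them are given with and without them. Nothing in the labels says whether mice of a group came from separate litters or injection days.

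At day 2 in PBS retinas of batch 1 the 8 genes differed widely in level. Per kilobase of exon, the mean level was 49.7 CPM per kb for Ackr1, 4.19 for Vcam1, 2.38 for Vwf, 1.46 for Lrg1, 0.991 for Icam1, 0.306 for Madcam1, 0.189 for Sele and 0.129 for Selp. The value of Ackr1 needs care. Ackr1 stood at 16.7% to 34.1% of the CPM of the overlapping Cadm3 in all retinas of the series, between 15% and 25% in 106 of them, and after removal of the group means the log2 levels of both genes had a Pearson r of 0.90 over all retinas and 0.77 over the 107 without the libraries that stood apart. Over all retinas, with those libraries included, the genes most like Ackr1 in that measure were ENSMUSG00000071567 (r = 0.96), Fam19a3 (0.95) and Trank1 (0.95). None of these is a gene of the pan-endothelial list. How many of the Ackr1 counts came from Cadm3 transcripts was not tested.

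**Figure D1:**
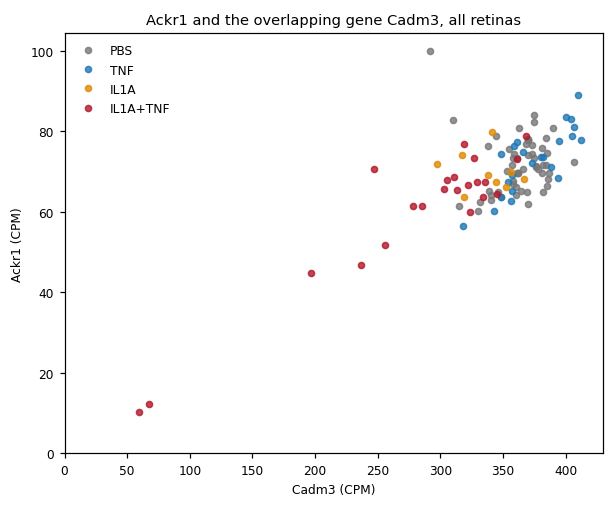
Ackr1 level against Cadm3 level, both in TMM-scaled CPM, with 1 point for each retina of the series. Ackr1 lay between 16.7% and 34.1% of Cadm3, and the Sarm1-/- IL1A+TNF replicates 4 and 5 sat at the low end of both genes.

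At day 2 most of the 8 genes rose after IL1A, with or without TNF, and limma-voom called none after TNF alone. With IL1A+TNF, 7 of the 8 genes rose and Ackr1 fell (limma-voom, adjusted p under 0.05), in a comparison that called 50.4% of 19548 genes, 24.9% higher and 25.5% lower. With IL1A alone, 6 genes rose and none fell, where 21.4% of genes were called, 12% higher. With TNF alone limma-voom called 0 of the 8, with 0 at an unadjusted p under 0.05, where 0.655% of genes were called, and edgeR and DESeq2 each called Madcam1. The median log2 difference of the 8 genes was 0.97 with IL1A+TNF, 0.74 with IL1A and 0.04 with TNF, and that of all genes tested was -0.023, -0.0104 and -0.00198. These 3 comparisons share the same 31 PBS retinas. With the mouse as a fixed factor, which compares the eyes of an animal directly, 3 genes were called with IL1A+TNF (Icam1, Lrg1 and Vwf, in a fit calling 35.5% of genes), 1 with IL1A (Selp, 10.2%) and 0 with TNF (0.39%, with 2 at an unadjusted p under 0.05). In that fit the genes that lost their call had adjusted p between 0.0633 and 0.759 with IL1A+TNF and between 0.0725 and 0.284 with IL1A.

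**Figure D2:**
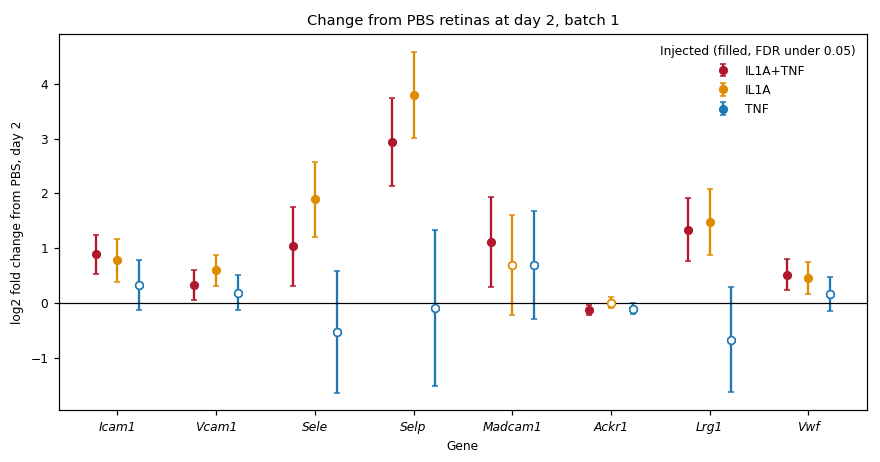
Log2 fold change from PBS at day 2 in WT retinas of batch 1 for the 8 genes, with 95% confidence intervals, for IL1A+TNF, IL1A and TNF. Filled points have an adjusted p under 0.05: 8 for IL1A+TNF, 6 for IL1A and 0 for TNF, with Selp farthest from 0 at 3.80 for IL1A.

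Selp had the largest difference. Its level in PBS retinas ranged from 0 to 3.19 CPM with a median of 0.276, and with IL1A it ranged from 0.693 to 10.7 CPM with a median of 4.16. With IL1A+TNF it ranged from 1.31 to 4.38 CPM (median 2.46), and with TNF from 0 to 1.23 CPM (median 0.301). The TNF retinas lay inside the PBS range, while 7 of 9 IL1A retinas and 2 of 10 IL1A+TNF retinas exceeded the highest PBS retina. Selp rose by 3.80 ± 0.39 (log2 fold change ± SE, 14-fold) with IL1A (limma-voom, adjusted p = 2.01e-11) and by 2.94 ± 0.41 (7.68-fold) with IL1A+TNF (adjusted p = 1.17e-08). With TNF the log2 difference was -0.09 (95% interval -1.52 to 1.33). Within animals with both eyes sequenced, the IL1A eye was higher in 7 of 7 mice, the IL1A+TNF eye in 7 of 8 and the TNF eye in 6 of 8 (median log2 difference 1.05). With the mouse as a fixed factor the IL1A+TNF difference was 1.5 (limma-voom, adjusted p = 0.0742), the IL1A difference was 3.05 (adjusted p = 0.00531) and the TNF difference was 1.30 (adjusted p = 0.688).

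The group medians of Sele stood in the same order as those of Selp, with smaller differences. Sele ranged from 0.0246 to 2.36 CPM in PBS retinas (median 0.37), from 0.332 to 3.94 CPM with IL1A (median 1.58), from 0.414 to 1.74 CPM with IL1A+TNF (median 0.783) and from 0 to 0.909 CPM with TNF (median 0.38). All 4 groups overlapped, and 1 IL1A retina exceeded the highest PBS retina. Sele rose by 1.90 ± 0.34 with IL1A (limma-voom, adjusted p = 1.87e-05) and by 1.04 ± 0.36 with IL1A+TNF (adjusted p = 0.0126). The IL1A+TNF call was lost with edgeR (adjusted p = 0.11) and DESeq2 (0.131), and with the mouse fixed the difference was 0.23. With TNF the difference was -0.52 (95% interval -1.64 to 0.59). Within animals, the IL1A eye had more Sele in 4 of 7 mice and the IL1A+TNF eye in 5 of 8.

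Icam1 and Vcam1, the ligands for firm arrest, shifted less and from higher levels. Icam1 ranged from 1.42 to 10.5 CPM in PBS retinas (median 3.72), from 3.27 to 8.85 CPM with IL1A (median 7.64), from 5.74 to 12.5 CPM with IL1A+TNF (median 6.69) and from 1.57 to 8.65 CPM with TNF (median 5.96). Although the ranges overlapped, all 10 IL1A+TNF retinas stood above the PBS mean. Icam1 rose by 0.89 ± 0.18 with IL1A+TNF (limma-voom, adjusted p = 3.75e-05, kept in 18 of 18 other settings) and by 0.78 ± 0.19 with IL1A (adjusted p = 0.00205), and differed by 0.33 (95% interval -0.12 to 0.78) with TNF. With the mouse fixed the IL1A difference was 0.52 (limma-voom, adjusted p = 0.284). Within animals, the IL1A eye had more Icam1 in 4 of 7 mice and the IL1A+TNF eye in 7 of 8.

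Vcam1, which several cell types besides endothelium can make, ranged from 21.1 to 73.4 CPM in PBS retinas (median 35.2), from 35.9 to 66.6 CPM with IL1A (median 53.5), from 33.2 to 60.3 CPM with IL1A+TNF (median 42) and from 22.7 to 63.8 CPM with TNF (median 44.1). No treated retina exceeded the highest PBS retina. Vcam1 rose by 0.60 ± 0.14 with IL1A (limma-voom, adjusted p = 0.00122) and by 0.33 ± 0.14 with IL1A+TNF (adjusted p = 0.0428), and the latter call was kept in 9 of 18 other settings and lost with edgeR (0.101) and DESeq2 (0.106). Leaving out IL1A+TNF replicate 3, 4, 7, 8 or 9 also ended it, with adjusted p between 0.0515 and 0.104. Measured against the median of the pan-endothelial list, the log2 difference of Vcam1 with IL1A+TNF was -0.03, that of Vwf 0.16, that of Icam1 0.52 and that of Selp 2.58.

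Madcam1 with TNF alone was called by the count-based tools and not by limma-voom. Its level ranged from 0.142 to 0.938 CPM in PBS retinas (median 0.378), from 0 to 2.99 CPM with TNF (median 1.02), from 0.131 to 2.39 CPM with IL1A+TNF (median 1) and from 0.176 to 1.38 CPM with IL1A (median 0.653). The TNF retinas were the most spread, with 4 of 8 above and 1 of 8 below the whole PBS range. Madcam1 rose by 1.12 ± 0.41 with IL1A+TNF (limma-voom, adjusted p = 0.0182), a call that was lost without IL1A+TNF replicate 3 (adjusted p = 0.0569). With TNF the limma-voom difference was 0.69 (95% interval -0.29 to 1.68, adjusted p = 0.825), while edgeR gave 1.45 with an adjusted p of 0.017 and DESeq2 an adjusted p of 0.0129. With IL1A it was 0.69 (adjusted p = 0.313).

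Lrg1, induced in inflamed vessels and also made by neutrophils, rose in both groups that had received IL1A. It ranged from 0.582 to 4.73 CPM in PBS retinas (median 1.87), from 2.65 to 13.1 CPM with IL1A (median 4.26), from 2 to 31.2 CPM with IL1A+TNF (median 3.55) and from 0.353 to 2.46 CPM with TNF (median 1.19). Every IL1A retina stood above the highest TNF retina, and the share of all genes separated in this way was not computed. Lrg1 rose by 1.48 ± 0.30 with IL1A (limma-voom, adjusted p = 0.000164) and by 1.34 ± 0.29 with IL1A+TNF (adjusted p = 1e-04, kept in 18 of 18 other settings), and with TNF differed by -0.67 (95% interval -1.63 to 0.29).

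Vwf, the clotting protein that marks endothelium, ranged from 21.3 to 52.2 CPM in PBS retinas (median 37.3), from 37.6 to 65.4 CPM with IL1A (median 49.7), from 23.1 to 102 CPM with IL1A+TNF (median 56.9) and from 21.5 to 55 CPM with TNF (median 44.9). Of 10 IL1A+TNF retinas, 7 exceeded the highest PBS retina. Vwf rose by 0.52 ± 0.14 with IL1A+TNF (limma-voom, adjusted p = 0.0012) and by 0.46 ± 0.14 with IL1A (adjusted p = 0.0146). The IL1A eye was the higher one in 7 of 7 mice, and with TNF the difference was 0.16 (95% interval -0.15 to 0.48). For Vcam1 and Madcam1 the IL1A eye was higher in 5 of 7 mice, and for Lrg1 in 6 of 7. The IL1A+TNF eye was higher in 6 of 8 mice for Vcam1, Madcam1 and Lrg1, and in 7 of 8 for Vwf.

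Ackr1 ranged from 60.2 to 99.8 CPM in PBS retinas (median 69.6), from 63.7 to 79.9 CPM with IL1A (median 69), from 51.6 to 68.6 CPM with IL1A+TNF (median 64.8) and from 56.5 to 74.2 CPM with TNF (median 64.4). All 10 IL1A+TNF retinas were below the PBS mean, by a small amount. Ackr1 fell by 0.13 on the log2 scale with IL1A+TNF (limma-voom, adjusted p = 0.02), and Cadm3, its overlapping neighbour, differed by -0.17 (adjusted p = 2.5e-05). The call for Ackr1 was lost without IL1A+TNF replicate 2 (adjusted p = 0.0817) or 4 (0.0503). With IL1A the difference of Ackr1 was 0.01 (95% interval -0.09 to 0.11).

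**Figure D3:**
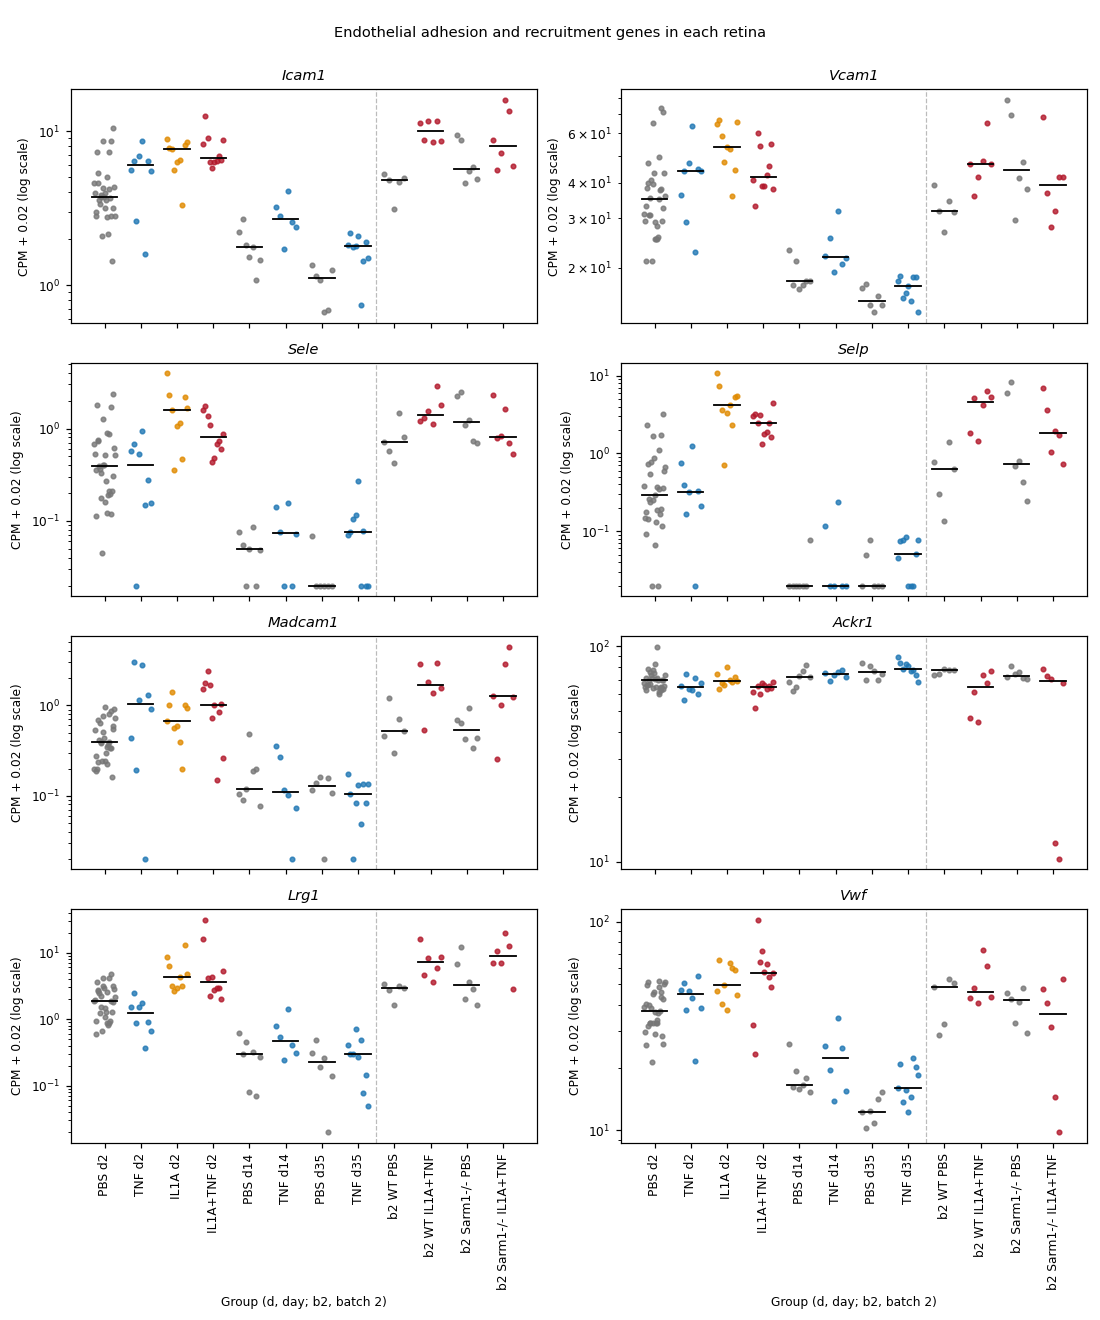
Levels of the 8 genes in every retina by group, in TMM-scaled CPM plus 0.02 on a log axis, with 1 point per retina and a black line at the group median. At day 2 the IL1A and IL1A+TNF medians of Selp (4.16 and 2.46 CPM) lie above those of PBS (0.276) and TNF (0.301), and at day 14 and day 35 Selp and Sele lie near 0.

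Set directly against TNF retinas, 3 of the 8 genes were higher with IL1A+TNF, where 39% of all genes were called (20% higher), and 3 were higher with IL1A, where 9.08% were called (5.39% higher). They were Selp (3.03 and 3.89), Sele (1.56 and 2.42) and Lrg1 (2.01 and 2.14), with adjusted p from limma-voom between 0.000298 and 0.033. Every IL1A+TNF retina had more Selp than the highest TNF retina, and the share of all genes separated in this way was not computed. With the mouse as a fixed factor 0 of the 8 were called in either comparison, in fits that called 14.4% and 0.00513% of genes, with 1 gene each at an unadjusted p under 0.05. In that fit the differences for IL1A+TNF against TNF were 0.20 for Selp, 0.17 for Sele and 1.53 for Lrg1, and those for IL1A against TNF were 1.75, 1.49 and 1.60. No mouse had a TNF eye beside an IL1A or IL1A+TNF eye, so these are indirect comparisons through the PBS fellow eyes. Among those PBS eyes, Selp was 2.35 higher on the log2 scale opposite IL1A+TNF than opposite TNF (limma-voom, adjusted p = 0.916). EdgeR and DESeq2 did not call Sele for IL1A+TNF against TNF (1.17 and 1.2, adjusted p 0.0817 and 0.0726), and leaving out IL1A+TNF replicate 2 or 3 or TNF replicate 3, 6, 7 or 8 also ended that call (adjusted p between 0.0513 and 0.104). Between IL1A+TNF and IL1A, limma-voom, edgeR and DESeq2 each called 0 of the 8 (10.1% of genes were called by limma-voom), with 3, 1 and 1 at an unadjusted p under 0.05. Selp and Sele were both 0.86 lower on the log2 scale with IL1A+TNF than with IL1A (95% intervals -1.59 to -0.14 and -1.65 to -0.06, adjusted p 0.117 and 0.163). No member was called for a departure from additivity of the log2 effects of IL1A and TNF by any of the 3 tools. None had an unadjusted p under 0.05, and limma-voom called 3.6% of genes. With the mouse as a fixed factor 0 were called and 2 had an unadjusted p under 0.05. The 95% intervals were wide for some members, such as Selp (-2.37 to 0.83) and Lrg1 (-0.65 to 1.71). The test thus cannot show that the effects of these members were additive.

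Genes for the leukocyte side of these adhesion pairs moved with the same treatments. Which cells of the retina held these transcripts was not tested. Of 13 counter-receptor genes tested, 11 rose and 1 fell with IL1A+TNF (median log2 difference 1.66), 11 rose with IL1A (1.29) and 1, Itgax, rose with TNF. Itgb2, the shared chain of the integrins that bind Icam1, rose by 2.58 with IL1A+TNF and 1.85 with IL1A, its partners Itgal by 2.41 and 2.06 and Itgam by 2.05 and 1.66. Itga4, part of the receptors for Vcam1 and Madcam1, rose by 0.41 and 0.33, and Itgb7 by 0.85 and 0.96. Selplg, which carries the main P-selectin ligand, rose by 1.54 and 1.29. Among 8 tested genes that build selectin ligands, 6 rose and 1 fell with IL1A+TNF, led by Gcnt1 at 2.45, and 5 rose with IL1A.

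Chemokines bound by Ackr1 rose in part, 5 of 10 with IL1A+TNF, 4 of 10 with IL1A and 1 of 10 with TNF. Cxcl1, which attracts neutrophils, rose by 1.52 with IL1A+TNF, and Ccl2, which attracts monocytes, by 1.06. Among 14 other endothelial adhesion and transmigration genes, 8 rose and 1 fell with IL1A+TNF. Of the endothelial markers fixed for naming, Pecam1 was at 0.60 and Cdh5 at 0.70, while Cldn5 is not reported here. Of 12 genes of TGF-beta signalling in endothelium, the setting of Lrg1, 9 rose with IL1A+TNF, among them Tgfb1 (1.55) and Eng (0.77). Of 9 tested genes of the Weibel-Palade bodies 3 rose and 1 fell, and of 11 cytokine receptors and NF-kB feedback genes 10 rose, such as Il1r2 (3.17) and Tnfrsf1b (1.91), while the feedback inhibitor Tnfaip3 fell by 1.2. The counts of this and the preceding paragraph stand beside the 24.9% and 25.5% of all genes called higher and lower with IL1A+TNF. With IL1A 12% of all genes were called higher, and with TNF 0.655% were called in either direction.

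Most endothelial, neutrophil and monocyte markers moved with the members, while most pericyte and lymphocyte markers were not called. Pan-endothelial markers rose in 11 and fell in 2 of 16 with IL1A+TNF (median 0.36), and did so in 11 and 2 with IL1A (0.34), while 0 of 16 were called with TNF. Their summed level ranged from 397 to 648 CPM in PBS retinas, from 522 to 759 with IL1A+TNF, from 554 to 673 with IL1A and from 496 to 667 with TNF. The summed level of 9 neutrophil markers ranged from 1.26 to 82.8 CPM in PBS retinas, from 49.6 to 458 with IL1A+TNF, from 29.9 to 157 with IL1A and from 1.19 to 17.4 with TNF, and 5 of 8 tested rose with IL1A+TNF, such as S100a8 (3.92) and Cxcr2 (3.78). Monocyte markers rose in 6 of 7 and platelet markers in 2 of 5, Pf4 by 2.46, with 1 platelet marker lower. For erythrocyte markers 0 of 5 were called. Pericyte and smooth muscle markers rose in 2 of 9 with IL1A+TNF (median 0.06), T cell markers in 1 of 3 tested and B cell markers in 0 of 3. With IL1A+TNF 24.9% of all genes were called higher and 25.5% lower, and with IL1A 12% were called higher. The part of leukocytes and platelets in the member levels was not tested.

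Across all retinas, with group means removed, the members fell into looser and closer pairs, which is given as a description only since all share libraries. The libraries that stood apart are included, and the r values of this paragraph were not computed without them. Sele and Icam1 (r = 0.74), Sele and Selp (0.71), Vcam1 and Selp (0.69), Icam1 and Selp (0.66) and Icam1 and Vcam1 (0.65) varied most alike, and Vwf varied little with Icam1 (0.07), Sele (0.10) or Madcam1 (0.04). Vwf had an r of 0.70 with the pan-endothelial markers and 0 with the neutrophil markers. Icam1, Selp and Lrg1 had values of 0.64, 0.65 and 0.67 with the neutrophil markers and 0.21, 0.23 and 0.12 with the pan-endothelial ones. The genes most alike were Ifitm2 (0.79), Nfkb2 (0.77) and Csf2rb (0.76) for Icam1, Steap4 (0.82), C1ra (0.78) and C3 (0.77) for Vcam1, and Steap4 (0.80), Lcn2 (0.76) and Saa3 (0.71) for Selp. For Vwf they were Ptprb (0.79), Abcb1a (0.74) and Fcrls (0.73), for Lrg1 Il17ra (0.74), Il4ra (0.71) and Cmtm6 (0.71), and for Madcam1 C1ra (0.69), C1s1 (0.69) and Slc7a11 (0.67). Sele was most like Icam1 and Selp, followed by Ifitm2 (0.66).

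TNF alone was also followed at day 14 and day 35. Sele, Selp and Madcam1 did not pass the filter on low counts at either time, so 5 of the 8 genes were tested. Limma-voom called 0 of the 5 at both times, where 0% of all genes were called, with 3 members at day 14 and 2 at day 35 at an unadjusted p under 0.05. Over all genes, 838 and 871 had an unadjusted p under 0.05 with limma-voom. EdgeR and DESeq2 also called 0 genes at either time, and the genes with a p under 0.05 before adjustment numbered 476 and 747 in edgeR and 472 and 746 in DESeq2, 2 of them members each time.

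Icam1 ranged from 1.06 to 2.68 CPM in PBS retinas (median 1.74) and from 1.7 to 4.08 CPM in TNF retinas (median 2.67) at day 14. At day 35 it ranged from 0.645 to 1.33 CPM (median 1.08) and from 0.717 to 2.17 CPM (median 1.78). At day 35, 8 of 9 TNF retinas were above the highest PBS retina. The log2 difference was 0.69 ± 0.20 at day 14 (limma-voom, adjusted p = 0.888) and 0.69 ± 0.19 at day 35 (adjusted p = 0.889), and the TNF eye was the higher one in 4 of 4 and 6 of 6 mice. Vwf ranged from 10.2 to 15.2 CPM in PBS and from 12.3 to 22.1 CPM in TNF retinas at day 35, a log2 difference of 0.45 ± 0.11 (adjusted p = 0.712) with the TNF eye higher in 6 of 6 mice. At day 14 the Vwf difference was 0.17 (95% interval -0.13 to 0.48) and the eyes split 2 to 2. Lrg1 was higher in the TNF eye in 4 of 4 mice at day 14 and in 3 of 6 at day 35. Vcam1 and Ackr1 differed by 0.26 and 0.03 at day 14 and by 0.10 and 0.05 at day 35, with adjusted p of 0.888 or more. The TNF effect did not pass the test of a difference between day 14 or day 35 and day 2 for any of the 8 genes (0 members called by limma-voom, edgeR and DESeq2, 0% of genes called by limma-voom and edgeR, 3 genes by DESeq2 at day 14 and 0 at day 35, with 1, 2 and 2 members unadjusted at day 14 and 0, 1 and 2 at day 35).

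In PBS retinas alone, 7 of the 8 genes were lower at day 14 than at day 2 (limma-voom, 19.2% of genes called, 10.5% lower) and 7 were lower at day 35 (32.8% called, 17.4% lower), Ackr1 being the exception each time and the day 2 retinas being shared. The 7 day 14 retinas came from 6 mice, as replicates 2 and 3 are the eyes of 1 animal, and this fit held no correlation between them. Sele, Selp and Madcam1 passed the filter through day 2 libraries, so their lower level was built into that choice. Among the 4 others, Icam1 fell by 1.22 and 2.01 on the log2 scale, Vcam1 by 0.92 and 1.19, Lrg1 by 3.03 and 3.47 and Vwf by 1.05 and 1.59, with adjusted p of 0.00361 or less. At day 35 the PBS retinas of these 4 genes all lay below the lowest day 2 retina. The share of all genes separated in this way was not computed. Selp measured 0 in 6 of 7 retinas at day 14 and in 4 of 6 at day 35. Its 2 and 3 counts in total came to 1.46% (95% exact counting interval 0.176 to 5.28) and 2.33% (0.48 to 6.84) of the day 2 level, and the 7 and 2 counts of Sele came to 5.31% (2.13 to 11) and 1.62% (0.196 to 5.87). These intervals cover counting error only. Madcam1 ranged from 0.0563 to 0.469 CPM at day 14 and from 0 to 0.142 CPM at day 35, against 0.142 to 0.938 CPM at day 2.

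Other groups of genes were lower in the same PBS retinas. At day 35 against day 2, 13 of 16 pan-endothelial markers fell (median -0.57), as did 10 of 13 counter-receptors, 9 of 10 Ackr1 chemokine ligands, 6 of 6 microglial and 4 of 8 neutrophil markers, while 5 of 6 rod genes rose. The summed pan-endothelial level ranged from 383 to 461 CPM at day 35. With no uninjected eye analysed here, the time after injection and the mice sampled at each time cannot be told apart.

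The second batch repeated IL1A+TNF against PBS at day 2 in WT mice. There 6 of the 8 genes rose and 0 fell (limma-voom, 37.7% of genes called, 19.6% higher), namely Selp by 2.72, Madcam1 by 1.5, Lrg1 by 1.28, Icam1 by 1.12, Sele by 1.09 and Vcam1 by 0.50. Selp measured 0.75, 0.283, 0.117, 1.39 and 0.618 CPM in the 5 PBS retinas and 1.42 to 6.27 CPM (median 4.62) with IL1A+TNF. Icam1 measured 5.27, 4.78, 3.1, 4.64 and 4.95 CPM against 8.47 to 11.6 CPM (median 10). The groups did not overlap for either gene, and the share of all genes without overlap was not computed. Adjusted p was 0.000111 for Icam1, and Madcam1 lost its call in 6 of 19 other settings.

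Lrg1 measured 3.38, 2.76, 1.62, 3.16 and 2.96 CPM in those PBS retinas and 3.57 to 16.1 CPM (median 7.12) with IL1A+TNF, with no overlap. Vwf and Ackr1 were not called. Vwf measured 48.8, 28.5, 32.4, 53 and 50.7 CPM against 40.8 to 73.2 CPM, a difference of 0.26 (adjusted p = 0.29), and Ackr1 measured 74 to 78.2 CPM against 44.7 to 76.9 CPM, a difference of -0.32 (adjusted p = 0.072). The IL1A+TNF eye was higher than the PBS eye of the same WT mouse in 5 of 5 mice for Icam1, Sele, Selp, Lrg1 and Madcam1, in 4 of 5 for Vcam1 and in 3 of 5 for Vwf.

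In Sarm1-/- mice the same comparison called 2 of the 8 genes, where 43.5% of all genes were called. Lrg1 rose by 1.19 ± 0.43 (limma-voom, adjusted p = 0.0196) and Ackr1 fell by 0.89 (adjusted p = 0.000311). Cadm3, which overlaps Ackr1, differed by -0.95 (limma-voom, adjusted p = 3.44e-05). The difference for Selp was 0.72 (95% interval -0.52 to 1.96), for Icam1 0.50 (-0.02 to 1.01), for Vcam1 -0.26 (-0.69 to 0.17), for Vwf -0.47 (-0.96 to 0.03), for Sele -0.32 (-1.25 to 0.60) and for Madcam1 1.29 (0.13 to 2.45, adjusted p = 0.0655). Which genes were called depended on the tool. EdgeR and DESeq2 called Ackr1 and Madcam1 (both 1.71 for Madcam1, adjusted p 0.00744 and 0.00534) and not Lrg1 (both 0.94, adjusted p 0.138 and 0.134), and the fit with the mouse as a fixed factor called the same pair, with Madcam1 at 1.63 (adjusted p = 0.00813) and Lrg1 at 1.08 (0.0698). Without the 2 libraries that stood apart 0 of the 8 were called (12.6% of genes called, 0 members at an unadjusted p under 0.05), with Lrg1 at 0.77 (limma-voom, adjusted p = 0.291), Madcam1 at 0.54 (0.632) and Ackr1 at -0.05 (0.815). With the second batch alone, 0 were called as well (30.8% of genes, 3 members unadjusted), and 0 without both libraries (4.88%, 0 members).

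These libraries, Sarm1-/- IL1A+TNF replicates 4 and 5, were low in pan-endothelial and pericyte markers and high in neutrophil markers. Vwf measured 14.5 and 9.81 CPM there and 31.1 to 53.2 CPM in the other 4 retinas of the group, and Ackr1 12.2 and 10.3 against 67.3 to 78.7 CPM. Icam1 was higher, at 15.9 and 13.5 against 5.58 to 8.74 CPM, as were Lrg1 at 20 and 12.5 against 2.79 to 10.5 CPM and Madcam1 at 2.89 and 4.48 against 0.236 to 1.27 CPM. Selp, at 1.93 and 1.7 CPM, lay within the range of the other 4, from 0.716 to 6.83 CPM. The summed pan-endothelial level was 312 to 428 CPM in both libraries and 616 to 666 CPM in the other 4, the pericyte level 115 to 125 against 153 to 279 CPM, and the neutrophil level 303 to 326 against 47.5 to 133 CPM. Other lists of vessel genes were not low there, with 902 to 961 against 824 to 907 CPM for the other endothelial adhesion genes, 602 to 633 against 455 to 494 CPM for endothelial TGF-beta signalling and 439 to 449 against 318 to 399 CPM for Weibel-Palade genes. Monocyte markers were higher there (88.3 to 98.1 against 47.8 to 68.3 CPM), as were fibroblast markers (106 to 211 against 21.9 to 102 CPM). So were pigment epithelium markers (78.1 to 213 against 2.46 to 64.3 CPM) and counter-receptor genes (1450 to 1523 against 791 to 1041 CPM). T cell markers, at 2.67 to 2.85 CPM, lay within the range of the other 4 (1.53 to 3.89 CPM). Their part in the results was not tested beyond leaving them out.

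In PBS retinas, genotype made no called difference to the 8 genes (0 by limma-voom, edgeR and DESeq2, with 2, 3 and 3 at an unadjusted p under 0.05, where 0.0397% of genes were called by limma-voom). Selp measured 6.05, 8.33, 0.66, 0.773, 0.406 and 0.227 CPM in the 6 Sarm1-/- PBS retinas. Replicates 1 and 2 were thus above all 5 WT PBS retinas, and both also held the 2 highest values of Icam1 (9.48 and 8.77 CPM), Vcam1 (78.6 and 69.8), Sele (2.22 and 2.49) and Lrg1 (6.8 and 12.3) in the group. The log2 difference between genotypes was 1.39 for Selp (95% interval 0.11 to 2.66, adjusted p = 0.988) and 0.49 for Vcam1 (0.09 to 0.90, adjusted p = 0.902). For the other genes it was 0.73 for Sele, 0.45 for Lrg1, 0.35 for Icam1, 0.05 for Ackr1, 0.04 for Vwf and -0.30 for Madcam1.

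Between genotypes after IL1A+TNF, 2 of the 8 were lower in Sarm1-/- retinas (14.8% of genes called, 10.8% lower), Vwf at -0.90 (limma-voom, adjusted p = 0.00612) and Ackr1 at -0.67 (0.0127). Without the libraries that stood apart the values were -0.32 and 0.18 and 0 were called (0.889% of genes, 1 member unadjusted). The test of a difference between the IL1A+TNF effects of the genotypes called 3 of the 8 with limma-voom (8.75% of genes, 7.24% lower), all lower in Sarm1-/- mice: Selp at -2.23 ± 0.75 (adjusted p = 0.0471), Vwf at -0.94 ± 0.28 (0.0265) and Ackr1 at -0.72 ± 0.24 (0.0399). EdgeR, DESeq2 and the fit with the mouse as a fixed factor (0.045% of genes) called 0, with 3, 3 and 4 members unadjusted. With all libraries the overlapping Cadm3 was at -0.62 (limma-voom, adjusted p = 0.00933) between genotypes after IL1A+TNF. In the test of the difference Cadm3 was at -0.72 (adjusted p = 0.0247), so the Ackr1 calls cannot be told apart from a change in Cadm3.

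Without both libraries the interaction called 0 of the 8 and 0% of genes, with 4 members at an unadjusted p under 0.05. Selp was then at -2.14 (adjusted p = 0.295), Icam1 at -0.84 (0.289), Sele at -1.41 (0.345), Vcam1 at -0.63 (0.35), Vwf at -0.34 (0.603) and Ackr1 at 0.14 (0.588). For Selp the value also turned on the Sarm1-/- PBS retinas with high levels, being -1.65 (adjusted p = 0.191) without replicate 1 and -1.68 (0.178) without replicate 2. Within animals, the IL1A+TNF eye of Sarm1-/- mice had more Selp in 5 of 6, more Lrg1 in 5 of 6, more Icam1 in 4 of 6 and more Vcam1 in 1 of 6. The second batch alone gave 0 calls among the members and 0% of genes (2 members unadjusted).

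**Figure D4:**
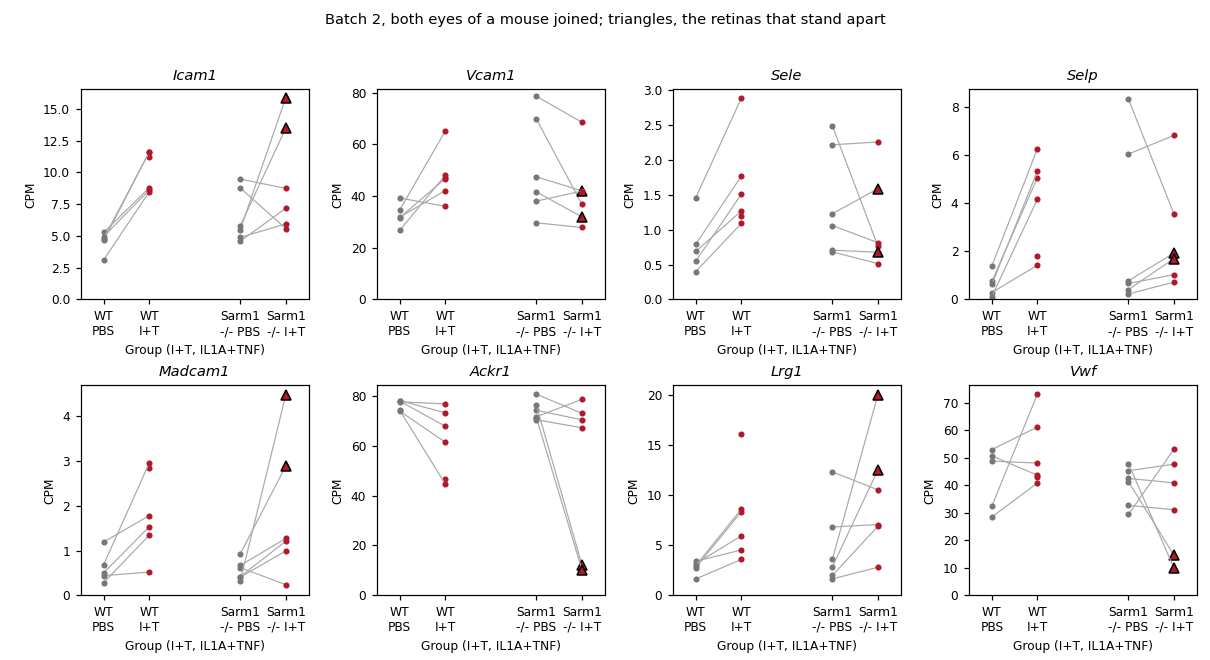
Levels of the 8 genes in the second batch at day 2, in TMM-scaled CPM, for PBS and IL1A+TNF in WT and Sarm1-/- mice, with lines joining the eyes of a mouse and triangles for the 2 libraries that stood apart. In WT mice the Icam1 and Selp values of the treated eyes lie above all PBS values, whereas in Sarm1-/- mice the groups overlap, with Ackr1 at 12.2 and 10.3 CPM in the libraries that stood apart.

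Pericyte, endothelial and Mueller glia markers differed between genotypes in the same direction as Vwf. With all libraries, 5 of 16 pan-endothelial, 4 of 9 pericyte and 3 of 6 Mueller glia markers had a lower IL1A+TNF effect in Sarm1-/- mice, and 0 had a higher one. In that test 0 of 13 counter-receptors, 0 of 6 microglial and 0 of 6 rod genes were called, and 7.24% of all genes were called lower. Without both libraries that stood apart, 0% of all genes were called.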

How the data were processed

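Retinal RNA was converted to libraries with the KAPA mRNA HyperPrep kit and read as paired ends. The authors aligned reads with STAR 2.7.9a to mm10 and counted them per gene with featureCounts (Subread 2.0.1), and the deposited table holds raw gene counts, of which all columns were used (30014757 to 79064488 counts per library). Counts were fitted in R 4.3.3 with edgeR 4.0.16 (TMM factors; filterByExpr with a minimum count of 10 and a total of 15) and limma 3.58.1 (voom, sex as covariate, the correlation of the eyes of a mouse estimated with statmod 1.5.0), and p-values were adjusted over all genes tested by the Benjamini-Hochberg method with a threshold of 0.05. Separate fits were made for day 2 WT, each later day, TNF over days, PBS over days, the second batch in WT, and genotype (both batches at day 2, batch as covariate). EdgeR's quasi-likelihood test, DESeq2 1.42.0, other filters and scalings, no sex term and no mouse correlation were alternatives. So were the mouse as a fixed factor and leaving out 1 retina at a time. The retinas left out were cytokine-injected ones and those of the second batch, and never PBS retinas of the first batch. Pairing came from the labels, which give the mouse of each eye; the estimated correlation of the eyes was 0.0515 at day 2, 0.284 at day 14, 0.0794 at day 35 and 0.00525 in the genotype fit. The CPM values are on the TMM scale over all libraries, the log2 levels used a prior count of 2, and likeness was computed over genes with a mean of at least 1 CPM.

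All 8 members were to be named in every comparison, and where few passed the test some are given by counts alone. From the other lists, up to 4 genes each were named, those with the largest difference with IL1A+TNF at day 2 among called genes with a mean of at least 1 CPM, beside fixed counter-receptors and endothelial markers. The members and lists were chosen with earlier results of these data known. Positions came from GENCODE M21 (35533 of 37315 genes matched) and promoters from RefSeq. The first contrast of each fit alone was checked on simulated counts, which held no correlation between the eyes of a mouse.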

Additional observations from a re-analysis of the deposited data

Results flagged for a closer look

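Of 88 combinations of gene and group checked for a retina far from its group, 9 had one, and chance gives about 1 in 20. For Icam1 these were the TNF retina of replicate 6 at day 35 (0.717 CPM), the IL1A retina of replicate 7 at day 2 (3.27 CPM) and the WT PBS retina of replicate 3 in the second batch (3.1 CPM), each the lowest of its group. The last retina was also lowest for Lrg1, at 1.62 CPM. The remaining ones were Sele in PBS replicate 1 at day 35 (0.0484 CPM, the others at 0), Selp in PBS replicate 7 at day 14 (0.0563 CPM, the others at 0), Ackr1 in IL1A+TNF replicate 2 at day 2 (51.6 CPM), Vwf in TNF replicate 6 at day 2 (21.5 CPM) and Madcam1 in PBS replicate 4 at day 35 (0 CPM).

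The effect of IL1A+TNF differed between WT and Sarm1-/- mice by limma's test of the difference for Vwf (-0.94), Selp (-2.23) and Ackr1 (-0.72), and none of these passed without the 2 libraries that stood apart, where Vwf was at -0.34, Selp at -2.14 and Ackr1 at 0.14.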

How the results depend on the processing

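Counts of members called changed as follows. TNF at day 2 went from 0 to 1 with edgeR and to 1 with DESeq2. PBS at day 14 and day 35 against day 2 went from 7 to 4 each when at least 1 CPM was required, where 5 members were tested. With the replicate block of the mouse as a fixed factor, IL1A+TNF went from 8 to 3, IL1A from 6 to 1, and IL1A+TNF and IL1A against TNF and the genotype interaction from 3 to 0. Sarm1-/- against WT with IL1A+TNF went from 2 to 1 with edgeR and with DESeq2, and the interaction from 3 to 0 with both. With batch 2 alone, without both libraries that stood apart, or with both changes, the 3 comparisons that hold Sarm1-/- IL1A+TNF retinas all went to 0. The block could not be fitted for Sarm1-/- against WT, whose mice differ between the groups, and changed no other count by over 1.5 times. The cause of these changes was not tested.

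Leaving out 1 retina at a time gave 6 to 8 calls with IL1A+TNF, 6 with IL1A, 0 to 1 with TNF, 0 to 1 for IL1A+TNF against IL1A, 2 to 4 against TNF, 3 for IL1A against TNF, 4 to 7 in WT of the second batch, 1 to 3 in Sarm1-/- mice, 0 to 2 between genotypes with IL1A+TNF and 0 to 5 for the interaction. It was not run for PBS over days or TNF over days. No PBS retina of the first batch was left out in turn, and no WT IL1A+TNF retina in the genotype fit.

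The sign of a log2 difference changed in these cases, of which the called ones were Ackr1 in both genotype tests without the libraries that stood apart and Vcam1 against the pan-endothelial median. With no filter it was Madcam1 0.03 for IL1A vs TNF. With at least 1 CPM it was Madcam1 0.01 for IL1A vs TNF. With edgeR it was Lrg1 0.36 for IL1A+TNF vs IL1A, Madcam1 -0.10 for IL1A+TNF vs TNF, Selp -0.08 for IL1A+TNF vs PBS in Sarm1-/-, Madcam1 0.07 and Icam1 0.02 for Sarm1-/- vs WT with IL1A+TNF. With DESeq2 it was Lrg1 0.39 for IL1A+TNF vs IL1A, Madcam1 -0.09 for IL1A+TNF vs TNF, Selp -0.09 for IL1A+TNF vs PBS in Sarm1-/-, Madcam1 0.06 and Icam1 0.00 for Sarm1-/- vs WT with IL1A+TNF. With no sex term it was Madcam1 0.01 for IL1A vs TNF. With no replicate block it was Madcam1 0.02 for IL1A vs TNF. With the replicate block as a fixed factor it was Ackr1 -0.04 for IL1A vs PBS, Selp 1.30 and Sele 0.06 for TNF vs PBS, Vwf -0.04 for IL1A+TNF vs IL1A, Madcam1 -0.54 and Vcam1 -0.14 for IL1A+TNF vs TNF, Vwf -0.24 and Selp -1.01 and Vcam1 -0.29 for the day 14 change of the TNF effect, Selp -0.31 for the day 35 change of the TNF effect. With batch 2 alone it was Vwf -0.04 and Ackr1 0.00 for Sarm1-/- vs WT with PBS, Madcam1 -0.17 for the interaction. Without both libraries that stood apart it was Vwf 0.11 for IL1A+TNF vs PBS in Sarm1-/-, Ackr1 0.18 and Lrg1 -0.11 for Sarm1-/- vs WT with IL1A+TNF, Ackr1 0.14 and Madcam1 -0.72 for the interaction. With batch 2 alone and without both it was Vwf 0.13 for IL1A+TNF vs PBS in Sarm1-/-, Ackr1 0.26 and Lrg1 -0.18 for Sarm1-/- vs WT with IL1A+TNF, Ackr1 0.30 and Madcam1 -0.95 for the interaction. Against the pan-endothelial median it was Vcam1 -0.03 for IL1A+TNF vs PBS. Leaving out 1 retina at a time, log2 differences that crossed 0 ranged over Lrg1 -0.39 to 0.05 and Vwf -0.05 to 0.19 for IL1A+TNF vs IL1A, Ackr1 -0.04 to 0.01 and Madcam1 -0.24 to 0.79 for IL1A+TNF vs TNF, Vwf -0.22 to 0.02 and Madcam1 -0.94 to 0.10 for additivity, Ackr1 -0.01 to 0.03 for IL1A vs PBS, Madcam1 -0.65 to 0.37 for IL1A vs TNF, Selp -0.47 to 0.48 for TNF vs PBS, Madcam1 -0.60 to 0.21 for Sarm1-/- vs WT with IL1A+TNF, Lrg1 -0.39 to 0.21 and Madcam1 -0.31 to 0.49 for the interaction, Vwf -0.03 to 0.13 for Sarm1-/- vs WT with PBS.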

Other observations

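Markers of other retinal and blood cells were counted in the same comparisons. With IL1A+TNF at day 2, where 50.4% of all genes were called, 5 of 6 rod genes fell, Nrl by 0.85, and 4 of 5 pigment epithelium genes fell, Rpe65 by 1.78. The 6 microglial markers had a median log2 difference of -0.29, and among Mueller glia markers 2 rose, Vim by 0.87, and 2 fell, Glul by 0.99. Fibroblast markers fell in 1 of 6 (Pdgfra, 0.52), pericyte markers rose in 2 of 9, T cell markers rose in 1 of 3 tested, and 0 of 3 B cell and 0 of 6 lens markers were called.

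The PBS retinas of day 2 did not share a fellow eye treatment. The alternative was added after the data were seen. Selp had a median of 0.491 CPM (0.168 to 3.19) in 8 PBS retinas whose fellow eye received IL1A+TNF, 0.353 CPM (0 to 1.69) in 7 opposite IL1A and 0.126 CPM (0.0469 to 0.358) in 8 opposite TNF. Limma-voom called 0 of 18702 genes between these sets. Among the 8 members 1 had an unadjusted p under 0.05, Selp, which was 2.35 higher on the log2 scale opposite IL1A+TNF than opposite TNF (adjusted p = 0.916).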
